A study of Mus musculus with 24 samples.

Results

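The Toll-like receptor family was followed as 10 mouse genes, Tlr1, Tlr2, Tlr3, Tlr4, Tlr5, Tlr6, Tlr7, Tlr8, Tlr9 and Tlr13, which were taken by symbol from tables of 48820 gene entries each. All 10 symbols were found in every table. The series compared livers with and without the bone morphogenetic proteins BMP9 (gene Gdf2) and BMP10 in hepatic stellate cells, by RNA sequencing of sorted liver macrophages, sorted liver endothelial cells (ECs) and whole liver. A second experiment compared liver macrophages with and without Smad4, the shared signal transducer of BMP and TGF-beta receptors. There were 24 libraries in 8 groups of 3, and their total counts ranged from 60911527 to 110879155 reads.

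The labels give the strain as C57BL/6, and the methods of the study as C57BL/6J. Mice of the genotype Bmp9/10-HSC-KO (HSC-KO below) carried floxed Gdf2 and floxed Bmp10 together with Lrat-Cre, a Cre driven in hepatic stellate cells, and were compared with mice labelled as controls. The gates for HSC-KO and control mice were CD45+Ly6C-F4/80+CD64+ for liver macrophages and CD45-CD31+ for ECs, both at 8 to 10 weeks of age, and whole liver was taken at 12 weeks. In the second experiment, macrophages of Smad4FF cKO mice, in which floxed Smad4 was deleted by Vav1-Cre in blood-forming cells and their progeny, were compared with macrophages of Smad4FF mice at 8 to 10 weeks. By the sample codes, 3 mice gave both a macrophage library and an EC library.

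Toll-like receptors are membrane receptors that recognise conserved molecules of microbes. A first group sits on the cell surface and binds lipoproteins, lipopolysaccharide or flagellin, and a second group sits in endosomes and binds nucleic acids after the chaperone UNC93B1 has carried the receptors there. Most of them signal through the adaptor MYD88 to NF-kappaB and to interferon regulatory factors, whereas TLR3 uses the adaptor TICAM1. In the liver, macrophages and sinusoidal ECs meet gut-derived microbial products that arrive with portal blood, and both cell types are known to carry several of these receptors.

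Below, a called gene is one with a log2 fold change beyond 1 in either direction and a p under 0.05 in edgeR's quasi-likelihood test after Benjamini-Hochberg adjustment over all genes tested. The targeted genes followed the labels. In liver, Gdf2 had 2036, 720 and 2030 counts in control and 287, 178 and 189 in HSC-KO libraries, and Bmp10 had 362, 209 and 180 against 7, 22 and 8 counts. Smad4 had 3894, 3185 and 4416 counts in Smad4FF and 1669, 1461 and 1289 in Smad4FF cKO macrophages, so some Smad4 reads remained. The identity of the sorted macrophages differed between genotypes: all 6 of 6 genes of a Kupffer cell list (Clec4f, Vsig4, Timd4, Cd5l, Clec1b, Folr2) were lower in HSC-KO macrophages and 6 of 6 were lower in Smad4FF cKO macrophages, while no more than 1 of 5 pan-macrophage genes (Adgre1, Csf1r, Fcgr1, Cd68, Mertk) was called in either comparison. In HSC-KO macrophages 3 of these 5 were nonetheless lower at an edgeR adjusted p below 0.05, short of the fold threshold. The median log2 fold change of the 5 was -0.561 in HSC-KO and -0.479 in Smad4FF cKO macrophages. By Xist and Y-linked reads the mice of several groups were of both sexes, which touches Tlr7, Tlr8 and Tlr13, since these 3 receptors lie on the X chromosome.

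On GRCm38, Tlr1 (chr5:64924679-64933563, minus strand) and Tlr6 (chr5:64952031-64960097, minus strand) are neighbours. Tlr7 (chrX:167304929-167330558) and Tlr8 (chrX:167242696-167264329) are also neighbours, and Tlr13 (chrX:106143204-106160493) lies far from them on the same chromosome. The others are Tlr2 (chr3:83836272-83841767), Tlr4 (chr4:66827584-66930284), Tlr5 (chr1:182954788-182976044), Tlr3 (chr8:45395665-45411080) and Tlr9 (chr9:106222598-106226883). Of the 10 genes, Tlr3 was the one whose exons overlapped another gene, the antisense transcript Gm45542, over 381 bases or 7.32% of its exon length. Whether counting used strand is not given in the sources used here, so reads from these 381 bases cannot be told apart.

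Tlr1 and Tlr6 are near-identical copies over part of their coding sequence, which bears on how reads of the 2 genes were divided. Of all 50-base words in the exons of each gene, 454 were shared, which is 13.6% of those of Tlr1 and 12.3% of those of Tlr6. The longest identical run was 229 bases, all coding, at chr5:64925537-64925765 in Tlr1 and chr5:64953828-64954056 in Tlr6. It is printed here from the GRCm38 genome in the sense of the genes, 5′ to 3′, because reads inside it carry no base that separates the genes.
Tlr1 and Tlr6 shared stretch: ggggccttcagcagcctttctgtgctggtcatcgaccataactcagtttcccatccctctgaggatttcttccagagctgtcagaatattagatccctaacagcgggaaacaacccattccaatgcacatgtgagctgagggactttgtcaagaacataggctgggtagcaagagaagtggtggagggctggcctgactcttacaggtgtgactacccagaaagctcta

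Promoter windows of RefSeq (GRCm38.p6, 250 bases before to 50 bases after a transcription start) were matched for 8 of the 10 genes, with 10 windows in all. Tlr4 and Tlr7 had no entry. The windows of the 4 receptors called higher in HSC-KO macrophages are shown, with the core motif of the macrophage transcription factor PU.1 (GAGGAA, or TTCCTC on the other strand) in capitals. For Tlr1, which has more than 1 listed start, the window of the first listed start is given.
Tlr1, chr5:64933509-64933808 (minus strand): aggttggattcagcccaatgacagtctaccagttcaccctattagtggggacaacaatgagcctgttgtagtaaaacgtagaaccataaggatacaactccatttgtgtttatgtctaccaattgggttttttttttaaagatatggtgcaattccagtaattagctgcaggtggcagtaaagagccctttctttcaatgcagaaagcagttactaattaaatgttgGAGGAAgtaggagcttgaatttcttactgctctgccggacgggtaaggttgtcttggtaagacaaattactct
Tlr5, chr1:182954538-182954837 (plus strand): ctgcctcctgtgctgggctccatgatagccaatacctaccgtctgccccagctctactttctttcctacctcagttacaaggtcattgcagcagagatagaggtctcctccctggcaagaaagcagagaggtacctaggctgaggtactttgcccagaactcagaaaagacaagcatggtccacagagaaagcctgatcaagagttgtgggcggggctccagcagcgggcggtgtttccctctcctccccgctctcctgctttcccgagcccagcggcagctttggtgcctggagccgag
Tlr9, chr9:106222348-106222647 (plus strand): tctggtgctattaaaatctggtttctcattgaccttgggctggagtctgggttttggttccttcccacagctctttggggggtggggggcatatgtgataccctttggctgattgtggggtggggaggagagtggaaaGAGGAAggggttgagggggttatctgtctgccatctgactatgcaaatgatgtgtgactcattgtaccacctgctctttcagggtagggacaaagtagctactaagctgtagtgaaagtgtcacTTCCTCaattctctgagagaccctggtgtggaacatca
Tlr13, chrX:106143025-106143324 (plus strand): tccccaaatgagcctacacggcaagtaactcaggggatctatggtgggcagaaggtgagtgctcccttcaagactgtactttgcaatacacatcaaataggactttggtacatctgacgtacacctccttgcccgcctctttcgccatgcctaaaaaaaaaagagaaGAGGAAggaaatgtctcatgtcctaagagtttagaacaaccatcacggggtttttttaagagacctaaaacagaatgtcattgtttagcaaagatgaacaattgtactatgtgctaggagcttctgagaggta

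The GAGGAA core was found in windows of Tlr1, Tlr8, Tlr9 and Tlr13, which is 4 of 10 windows, against 28.3% of all 32851 promoter windows in the table. It was not found in the Tlr5 window or in that of Tlr2, which is not shown. An AP-1 motif (TGANTCA, both strands) was found in the Tlr9 window and in 7.81% of all windows, and the BMP-SMAD palindrome GGCGCC was found in none of the 10 windows and in 11.9% of all windows. The motifs do not overlap each other in these windows by their letters. A match describes the letters of these windows and is not a measured binding site.

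Levels in control mice were set side by side first. For levels between genes, counts were scaled to a common library total over all 24 libraries (CPM) and divided by the exon length of each gene (CPM per kb). In control macrophages Tlr2, a partner in receptors for bacterial lipoproteins, had the highest level of the 10, at 22.9 ± 2.46 CPM per kb (SD, n = 3). The endosomal RNA receptors Tlr7 (13.9 ± 1.93) and Tlr13 (13.2 ± 1.89) and the lipopolysaccharide receptor Tlr4 (13.9 ± 3.97 CPM per kb) followed, and their libraries overlapped. Tlr6 (9.13 ± 1.32 CPM per kb) and Tlr1 (7.90 ± 1.69 CPM per kb), the 2 co-receptors of TLR2, came next and overlapped each other.

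The double-stranded RNA receptor Tlr3 (2.03 ± 0.491 CPM per kb) and the RNA receptor Tlr8 (1.30 ± 0.266 CPM per kb) were lower and overlapped. The DNA receptor Tlr9 was at 0.292 ± 0.120 CPM per kb, and the flagellin receptor Tlr5 was lowest at 0.0394 ± 0.0336 CPM per kb, with 7, 9 and 21 counts. Neighbours in this order whose libraries did not overlap were Tlr2 above Tlr7, Tlr13 above Tlr6, Tlr1 above Tlr3, Tlr8 above Tlr9 and Tlr9 above Tlr5.

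ECs carried a shorter set. Tlr2 was at 8.5 ± 1.06 CPM per kb, Tlr4 at 4.37 ± 0.306 and Tlr3 at 3.33 ± 0.0699 CPM per kb, without overlap between neighbours. Tlr6 was at 0.380 ± 0.0593 CPM per kb. The other 6 receptors had at most 8 counts in any control EC library, and Tlr1, Tlr5, Tlr8 and Tlr9 had 0 counts in all 3.

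**Figure D1:**
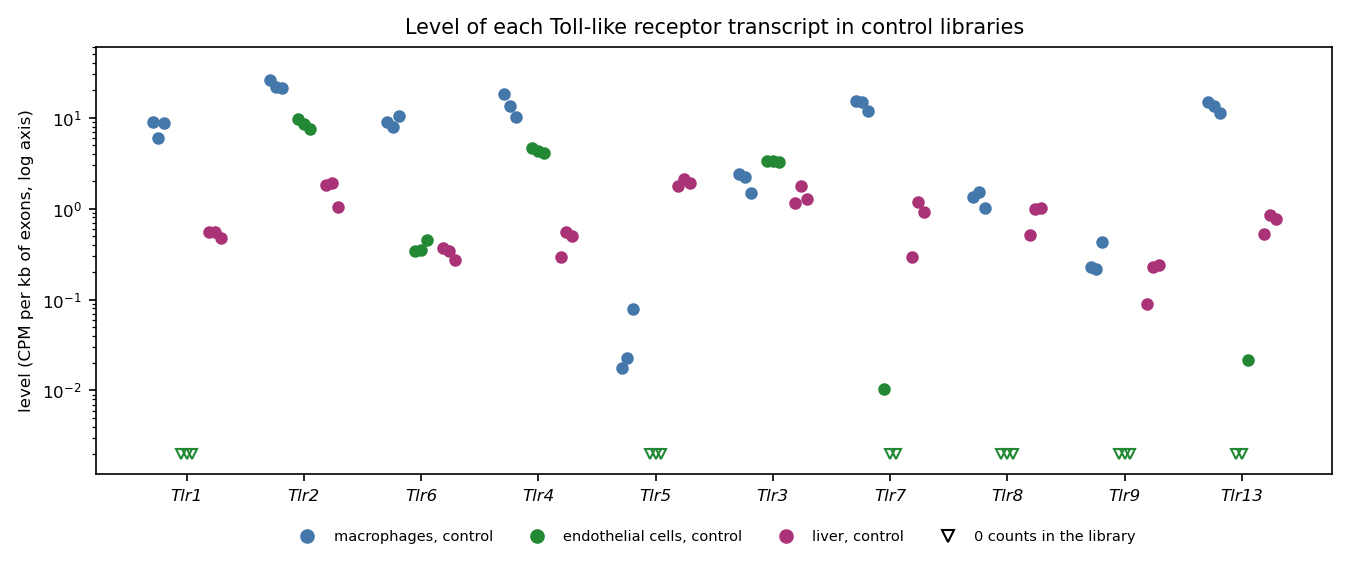
Level of each Toll-like receptor transcript in CPM per kb of exons (log axis) in 3 control libraries each of macrophages, ECs and liver, with 1 point per library and open triangles for libraries with 0 counts. Tlr2, Tlr4, Tlr3 and Tlr6 have points in all 3 kinds of sample, and Tlr5 is the receptor whose liver points lie far above its macrophage points.

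Control macrophages and control ECs were compared directly with the same test. Of 9 receptors tested, 8 were higher in macrophages, beside 18.0% of all 16263 genes tested. Tlr1, Tlr7, Tlr8, Tlr9 and Tlr13 passed the filter on low counts through the macrophage libraries alone, so their calls add nothing to their levels. Of the others, Tlr2 differed least, at 26.4 CPM in ECs and 67.7 CPM in macrophages (log2 fold change 1.36 ± 0.15, SE; adjusted p = 0.00027), followed by Tlr4, at 25 and 75.6 CPM (1.60 ± 0.22, adjusted p = 0.00083). Tlr6 was at 1.46 CPM in ECs and 33.3 CPM in macrophages (4.51 ± 0.21, adjusted p = 7.6e-06). Against a floor of 3 counts per library, Tlr1 was at least 606-fold, Tlr8 at least 107-fold and Tlr9 at least 23.3-fold higher in macrophages. Tlr7 and Tlr13 had 4 and 8 counts in all ECs together and 55.8 and 55.7 CPM in macrophages.

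Tlr3 ran the other way, at 17.9 CPM in ECs and 10.4 CPM in macrophages (log2 fold change -0.78 ± 0.21, SE; edgeR adjusted p = 0.019), below the fold threshold. Tlr5 was too low to be tested. Of the accessory proteins, the lipopolysaccharide co-receptor Cd14 was at 1.64 CPM in ECs and 322 CPM in macrophages, whereas Ly96, the MD-2 subunit that binds lipopolysaccharide with TLR4, was at 49.7 and 45.3 CPM (-0.13 ± 0.14, adjusted p = 0.47). Unc93b1 was at 97.9 and 1469 CPM. Cell type and deposited table coincide in this comparison and cannot be told apart.

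Macrophage RNA in the EC libraries was gauged with the same lists. In control ECs, Clec4f, Vsig4, Timd4, Cd5l and Folr2 were at 0.0476% to 0.0877% of their macrophage level on the 24-library scale, and Clec1b, which encodes CLEC2, was at 37.6%. Tlr7 and Tlr13, at 0.0246% and 0.0540%, lay in the range of the former genes or below it. Tlr4 (31.5%), Tlr2 (37.1%) and Tlr6 (4.16%) lay far above it, and Tlr3 was at 164% of its macrophage level.

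In whole liver the order was different. Tlr5 (1.93 ± 0.165 CPM per kb), Tlr2 (1.59 ± 0.472) and Tlr3 (1.41 ± 0.336) were highest and overlapped, Tlr8, Tlr7, Tlr13, Tlr1, Tlr4 and Tlr6 followed from 0.837 down to 0.325 CPM per kb with overlap between each pair of neighbours, and Tlr9 was lowest at 0.187 ± 0.0851 CPM per kb. As a share of the control macrophage level on the 24-library scale, 6 receptors lay between 3.24% (Tlr4) and 6.95% (Tlr2). Tlr9 (64.1%), Tlr8 (64.7%) and Tlr3 (69.2%) came nearer to their macrophage level. Tlr5 was 49.1-fold above it, at 9.27 CPM in liver, 0.189 CPM in macrophages and 0 counts in ECs. The 6 Kupffer cell genes were at 0.722% to 1.55% of their macrophage level in the same libraries.

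**Figure D2:**
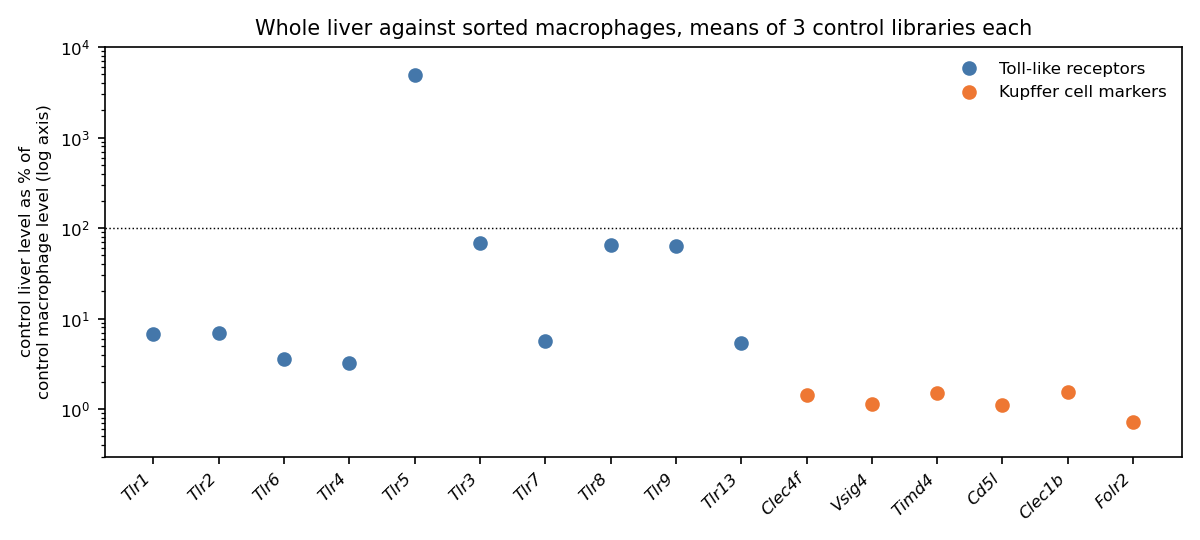
Mean level in 3 control livers as a percentage of the mean level in 3 control macrophage libraries (log axis, dotted line at 100%) for the 10 receptors and 6 Kupffer cell genes. Each receptor lies above the Kupffer cell genes, 6 receptors lie between 3.24% and 6.95%, and Tlr5 lies alone above the dotted line.

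The comparison of HSC-KO with control macrophages asks what the receptors do in liver macrophages when stellate cells lack both BMP genes. The receptors called higher were the lipoprotein co-receptor Tlr1, the flagellin receptor Tlr5, the DNA receptor Tlr9 and the ribosomal RNA receptor Tlr13, and none was called lower. Called higher were 4 of 10 receptors tested, beside 6.32% of all 16337 genes tested. Tlr5 passed the filter on low counts through the HSC-KO libraries alone, and of the other 9 receptors 3 were called. Tlr2 and Tlr7 passed the adjusted p threshold but not the fold threshold, which makes 6 of 10 with an adjusted p below 0.05 beside 9.29% of all genes in that direction. The median log2 fold change was 0.90 over the 10 receptors, 0.89 without Tlr5 and 0.039 over all genes tested. The groups did not overlap for 7 receptors, all higher in HSC-KO, beside 20.7% of all genes. In bulk libraries, fewer cells of a type and less RNA per cell cannot be told apart.

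Of the surface receptors, Tlr1 had 29.6, 19.4 and 29 CPM in control and 43.3, 63.2 and 69.5 CPM in HSC-KO macrophages. Every HSC-KO library lay above every control library, and the means were 26 ± 5.73 and 58.7 ± 13.7 CPM (SD, n = 3; log2 fold change 1.17 ± 0.23, SE; edgeR adjusted p = 0.011). Tlr2 had 76.8, 64.0 and 62.8 against 114, 159 and 107 CPM. Again the groups were apart, with means of 67.9 ± 7.80 and 127 ± 28.3 CPM (0.90 ± 0.18, adjusted p = 0.011).

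Tlr6, which shares the partner TLR2 and part of its sequence with Tlr1, did not pass. It had 33.3, 28.6 and 38.4 CPM in control and 45.2, 33.6 and 32.9 CPM in HSC-KO libraries, and the groups overlapped (0.16 ± 0.18, edgeR adjusted p = 0.59). Tlr4 had 99.2, 73.0 and 55.2 against 83.6, 85.4 and 67.1 CPM, a wide spread within the controls and an overlap between groups (0.05 ± 0.21, adjusted p = 0.89).

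Tlr5, which detects flagellin, was rare in both groups. It had 7, 9 and 21 counts in control and 157, 145 and 80 counts in HSC-KO macrophages, or 0.0828, 0.106 and 0.367 against 1.79, 1.52 and 0.876 CPM. The lowest HSC-KO library lay above the highest control library (log2 fold change 2.93 ± 0.71, SE; edgeR adjusted p = 0.025). The call was lost when control replicate 1 or 2 or HSC-KO replicate 1 or 2 was left out, with log2 fold changes of 2.58, 2.65, 2.71 and 2.86 in the order named and adjusted p of 0.056, 0.085, 0.092 and 0.071. Without control replicate 3, the control with the most reads of Tlr5, the change was 3.87 (adjusted p = 0.011).

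Among the endosomal receptors, Tlr13, a mouse receptor for bacterial ribosomal RNA, had 64.0, 56.1 and 47.5 CPM in control and 132, 153 and 110 CPM in HSC-KO macrophages. The groups were far apart, with means of 55.9 ± 8.24 and 132 ± 21.8 CPM (1.24 ± 0.17, edgeR adjusted p = 0.0022). Tlr7, the receptor for single-stranded RNA, had 62.1, 58.5 and 47.0 against 134, 95.1 and 82.7 CPM, also without overlap (0.89 ± 0.20, adjusted p = 0.019).

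Tlr9 had 66, 63 and 84 counts in control and 268, 254 and 209 counts in HSC-KO macrophages, which is 0.780, 0.742 and 1.47 against 3.05, 2.66 and 2.29 CPM. All HSC-KO libraries lay above all controls (1.42 ± 0.38, edgeR adjusted p = 0.037). Leaving out any of control replicates 1 and 2 and HSC-KO replicates 1, 2 and 3 in turn ended the call of Tlr9, with log2 fold changes of 1.28, 1.25, 1.32, 1.43 and 1.53 and adjusted p of 0.086, 0.11, 0.12, 0.089 and 0.070. Tlr8, with 4.78, 5.36 and 3.55 against 9.38, 5.62 and 5.64 CPM, had groups that did not overlap but did not pass the test (0.59 ± 0.28, adjusted p = 0.19). Tlr3 had 12.3, 11.4 and 7.52 against 10.1, 14.9 and 12.4 CPM with overlap (0.26 ± 0.24, adjusted p = 0.50).

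**Figure D3:**
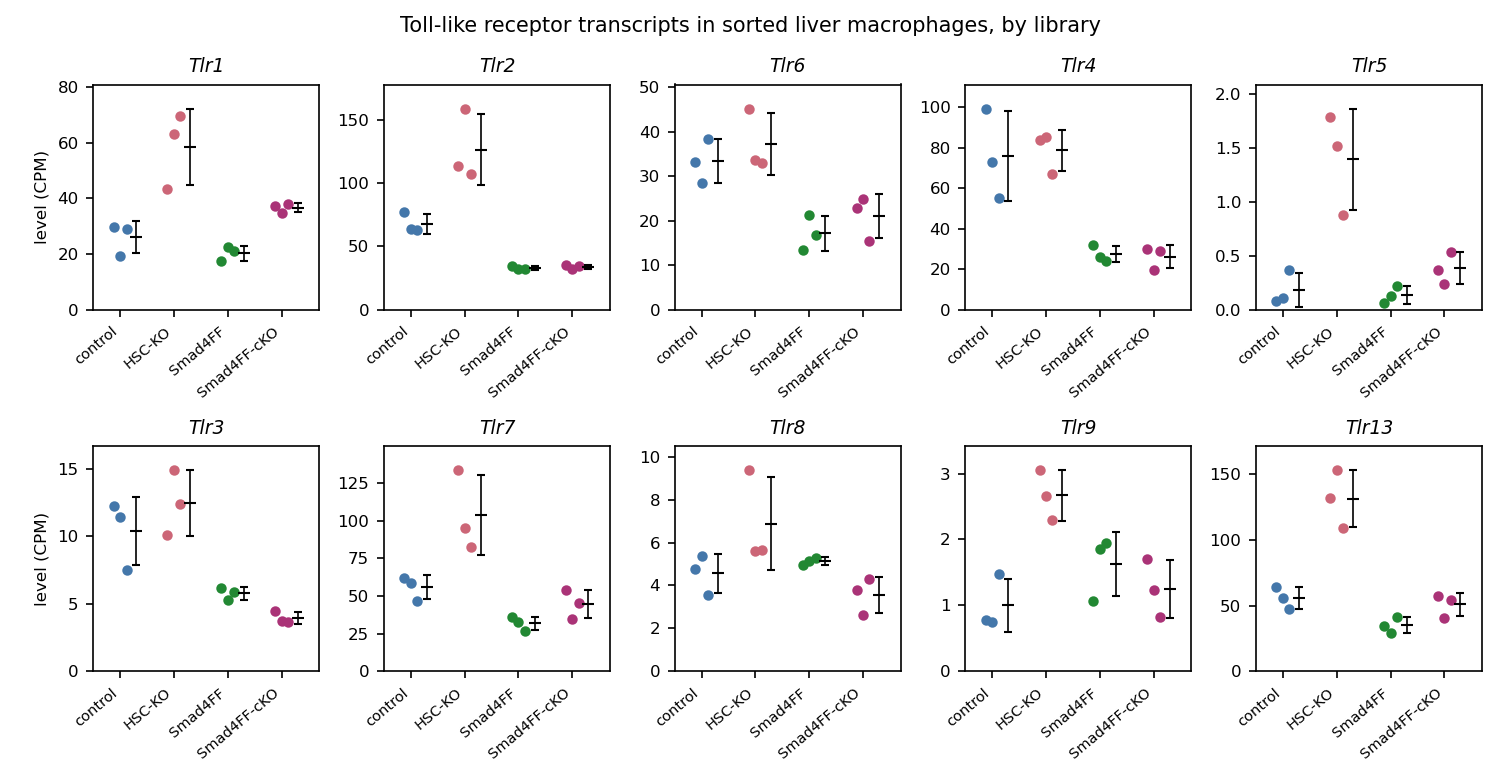
Level in CPM of each of the 10 receptors in 12 macrophage libraries (linear axes that start at 0), with 1 point per library and the mean ± SD of 3 libraries beside the points. HSC-KO points lie above all control points for Tlr1, Tlr2, Tlr5, Tlr7, Tlr8, Tlr9 and Tlr13, and Smad4FF cKO points lie above all Smad4FF points for Tlr1 and Tlr5.

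Sex was unequal between the groups and was examined for the X-linked receptors. Xist reads were present in control replicate 3 and in HSC-KO replicates 2 and 3. Tlr7 was at 62.1 and 58.5 CPM in the controls without Xist and 134 CPM in the HSC-KO library without it, and at 47.0 CPM in the control with Xist and 95.1 and 82.7 CPM in the HSC-KO libraries with it. Tlr13 was likewise higher in HSC-KO in both kinds of library, at 64.0 and 56.1 against 132 CPM and at 47.5 against 153 and 110 CPM. Tlr8 was at 4.78 and 5.36 against 9.38 CPM without Xist and at 3.55 against 5.62 and 5.64 CPM with it. Tlr8 was called in no alternative, the Xist level as a covariate included. With the Xist level as a covariate Tlr13 was called, the log2 fold change of Tlr7 was 1.08 and it was called as well (edgeR adjusted p = 0.0019), whereas Tlr1 was at 0.96 (adjusted p = 0.021) and Tlr9 at 1.37 (adjusted p = 0.063), both without a call.

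Markers of other cell types moved with genotype in the same libraries. The summed level of the Kupffer cell list was 29724 to 31384 CPM in control and 92.7 to 348 CPM in HSC-KO macrophages, and that of the pan-macrophage list 8412 to 9951 and 5465 to 6177 CPM. Of a T and NK cell list, 4 of 5 genes were higher, with sums of 6.80 to 20.3 and 45.5 to 156 CPM. Of a B cell list, 1 of 5 genes was higher, Cd79b, from 74.1 to 175 CPM, and the other 4 had log2 fold changes below 0 and were not called. The sums of the list, 64.7 to 105 and 164 to 197 CPM, are thus mostly Cd79b. Of a monocyte list, 4 of 5 genes were tested, with Ccr2 (6.82 to 66.9 CPM) and Ly6c2 (0.420 to 2.80 CPM) higher and Plac8 (131 to 6.28 CPM) lower, and its sums were 94.2 to 189 and 42.0 to 103 CPM.

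Plasmacytoid dendritic cells, which carry Tlr7 and Tlr9, were followed with 5 genes, of which 2 were higher, Siglech (0.248 to 5.28 CPM) and Runx2 (0.332 to 6.37 CPM). The sums were 277 to 359 in control and 379 to 583 CPM in HSC-KO macrophages, mostly from Ccr9, Bst2 and Tcf4, none of which was called. The same list summed to 740 to 795 CPM in control ECs, so its sums do not measure these cells. Conventional dendritic cell genes summed to 6.62 to 10.9 and 12 to 31.5 CPM, with 1 of 5 higher (Xcr1). Endothelial genes summed to 259 to 510 CPM in control and 29.9 to 90.0 CPM in HSC-KO macrophages. The part of these cells in the receptor differences was not tested.

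The rest of the pathway was described with 68 genes in lists that cover other receptors, co-receptors and chaperones, adaptors, kinases and ubiquitin ligases, transcription factors, inhibitors and inducible targets. In HSC-KO macrophages 66 were tested, 4 were higher and 7 lower, beside 11.7% of all genes called in either direction, and their median log2 fold change was 0.053. None of the 6 adaptors was called by edgeR, and 2 had an unadjusted p below 0.05, for which the share of all genes was not computed. The bridging adaptor Tirap had 45.6 against 30.7 CPM (-0.57 ± 0.13, adjusted p = 0.019), past the p threshold but not the fold threshold. Myd88 was at 119 and 104 CPM (-0.20 ± 0.12, adjusted p = 0.30), and Unc93b1 at 1471 and 1536 CPM (0.06 ± 0.17, adjusted p = 0.84).

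The called pathway genes went both ways. Of the inducible targets, the chemokines Ccl5 (21.5 to 120 CPM; 2.48 ± 0.43, edgeR adjusted p = 0.0064), Ccl3 (16.0 to 69.1 CPM; 2.11 ± 0.44, adjusted p = 0.014) and Ccl4 (9.77 to 28 CPM; 1.52 ± 0.26, adjusted p = 0.0062) rose. The call of Ccl3 ended without control replicate 3 (adjusted p = 0.059). T and NK cells also express Ccl5. The cytokine Il6 had 396, 398 and 220 counts in control and 0, 0 and 9 in HSC-KO macrophages (edgeR adjusted p = 0.0039). Its fitted log2 fold change ran from -6.43 to -11.5 with a library left out and is not a bound. Acod1, which makes itaconate (5.54 to 0.125 CPM), and the anti-inflammatory cytokine Il10 (7.40 to 2.75 CPM) fell, by 5.44 ± 0.94 and 1.43 ± 0.26 on the log2 scale.

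Lower genes outside the targets were the lipopolysaccharide carrier Lbp (40.7 to 1.41 CPM; -4.86 ± 0.29, edgeR adjusted p = 7.2e-05), the kinase Ikbke (24.5 to 3.31 CPM; -2.89 ± 0.36, adjusted p = 0.0015), the endosomal transporter Slc15a3 (590 to 177 CPM; -1.74 ± 0.14, adjusted p = 0.00023) and Irf7, the transcription factor downstream of TLR7 and TLR9 (1914 to 647 CPM; -1.56 ± 0.24, adjusted p = 0.0041). The inhibitor Il1rl1 rose from 0.142 to 6.05 CPM (5.34 ± 0.88, adjusted p = 0.0053). Of the 2 other mouse Toll-like receptors, Tlr12 was at 61.6 and 97.2 CPM (0.66 ± 0.11, adjusted p = 0.0059), below the fold threshold, and Tlr11 at 2.35 and 1.60 CPM (-0.56 ± 0.41, adjusted p = 0.39).

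The comparison of Smad4FF cKO with Smad4FF macrophages asks the same of macrophages that lack the transducer itself. No receptor passed both thresholds in edgeR or in DESeq2, beside 5.43% of all 17517 genes called. An unadjusted edgeR p below 0.05 was found for 5 of 10, and the share of all genes at that p was not computed. Tlr1 had an adjusted p below 0.05 and was the one receptor of the 10 to do so, beside 3.71% of all genes in that direction. The median log2 fold change was 0.17 over the 10 receptors, 0.04 without Tlr5, which passed the filter through the Smad4FF cKO libraries alone, and 0.036 over all genes. The groups did not overlap for 4 receptors, Tlr1 and Tlr5, which were higher, and Tlr3 and Tlr8, which were lower, beside 29.4% of all genes.

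Tlr1 had 17.3, 22.4 and 21 CPM in Smad4FF and 37.4, 34.8 and 37.9 CPM in Smad4FF cKO macrophages. The groups were well apart, with means of 20.2 ± 2.64 and 36.7 ± 1.67 CPM (SD, n = 3; log2 fold change 0.86 ± 0.14, SE; edgeR adjusted p = 0.010). Tlr2 had 34.5, 32.0 and 32.2 against 35.1, 32.2 and 34.2 CPM, nearly the same in all 6 libraries (0.04 ± 0.11, adjusted p = 0.88).

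Tlr4 (32.1, 26 and 24.2 against 30.1, 19.6 and 28.8 CPM; adjusted p = 0.88) and Tlr6 (13.3, 21.2 and 16.9 against 22.9, 25 and 15.4 CPM; adjusted p = 0.54) overlapped between genotypes. Tlr5 had 6, 11 and 23 counts against 36, 28 and 45, without overlap but at few reads (1.48 ± 0.63, edgeR adjusted p = 0.23). Of the endosomal receptors, Tlr13 had 34.2, 29.4 and 41.4 against 57.6, 40.9 and 54.4 CPM, where 1 knockout library fell among the controls (0.54 ± 0.18, adjusted p = 0.13).

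Tlr7 had 36.0, 32.5 and 26.9 against 54.0, 35 and 45.4 CPM and also overlapped (0.49 ± 0.19, edgeR adjusted p = 0.19). Tlr3, with 6.18, 5.25 and 5.83 against 4.46, 3.70 and 3.63 CPM (-0.55 ± 0.19, adjusted p = 0.14), and Tlr8, with 4.93, 5.16 and 5.29 against 3.79, 2.63 and 4.28 CPM (-0.53 ± 0.23, adjusted p = 0.24), were lower in each knockout library but did not pass. Tlr9 had 104, 168 and 201 against 165, 143 and 69 counts, with overlap (-0.38 ± 0.38, adjusted p = 0.64). All Smad4FF and Smad4FF cKO libraries carried Y-linked reads, so sex was equal here.

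Of the 68 pathway genes 65 were tested in this experiment, with 0 higher and 7 lower, beside 5.43% of all genes called in either direction. Both Irf7 (2336 to 475 CPM; -2.30 ± 0.26, edgeR adjusted p = 0.0021) and Slc15a3 (318 to 116 CPM; -1.45 ± 0.14, adjusted p = 0.0011) fell. So did Acod1 (2.01 to 0.106 CPM), Il6 (1.78 to 0.184 CPM) and the cytokine Il1b (183 to 30.4 CPM), with adjusted p of 0.0021, 0.018 and 0.010. Cd14 fell from 264 to 127 CPM (-1.06 ± 0.22, adjusted p = 0.028), and Tlr11 from 1.07 to 0.161 CPM (-2.71 ± 0.44, adjusted p = 0.010). The Cd14 call ended without any one of Smad4FF replicates 2 and 3 and Smad4FF cKO replicates 1 and 2, at edgeR adjusted p of 0.076 to 0.11. The Il6 call ended without Smad4FF replicate 1 or 3 or Smad4FF cKO replicate 1 (adjusted p of 0.062 to 0.063), that of Tlr11 without Smad4FF replicate 3 or Smad4FF cKO replicate 1 (0.055 and 0.052), and that of Il1b without Smad4FF cKO replicate 1 (0.052).

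Markers of other cell types moved in these libraries too. Monocyte genes summed to 137 to 175 CPM in Smad4FF and 10.2 to 26.9 CPM in Smad4FF cKO macrophages, with 1 of 5 lower (Plac8). B cell genes summed to 99.5 to 155 and 214 to 220 CPM, with 1 of 5 higher, Cd79b (84.8 to 193 CPM). Of the plasmacytoid dendritic cell genes Siglech (0.236 to 1.87 CPM) and Runx2 (0.203 to 3.47 CPM) were higher, while the sums were 383 to 507 and 393 to 447 CPM, again mostly from the uncalled genes of the list. Conventional dendritic cell genes summed to 24.4 to 26.9 and 12.3 to 20.1 CPM, with 1 of 5 lower (Clec9a). The part of these cells was not tested.

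Whether the change of a receptor differed between the 2 deletions was tested as a difference of changes over the 12 macrophage libraries. No receptor passed both thresholds, beside 2.68% of all 18263 genes, while DESeq2 called 1, Tlr9. Again 5 of 10 had an unadjusted edgeR p below 0.05, and the share of all genes at that p was not computed. Tlr2 was the one receptor with an adjusted p below 0.05, beside 3.02% of all genes, with an HSC-KO change 0.91 ± 0.21 (SE) log2 units above the Smad4FF cKO change (edgeR adjusted p = 0.040, and 0.011 to 0.14 over 17 alternatives). For Tlr9 the difference was 1.85 ± 0.55 (adjusted p = 0.10), for Tlr8 1.16 ± 0.38 (adjusted p = 0.14), for Tlr3 0.86 ± 0.30 and for Tlr13 0.74 ± 0.26 (both adjusted p = 0.17). For Tlr1 it was 0.36 ± 0.28 (adjusted p = 0.58).

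The controls of the 2 experiments were themselves unlike. On the 24-library scale, Tlr4 was at 77.1 CPM in controls of the HSC-KO mice and 27.2 CPM in Smad4FF macrophages, Tlr2 at 69.1 and 32.6 CPM, and Tlr7 at 56.9 and 31.5 CPM. Endothelial genes summed to 673 to 2090 CPM in Smad4FF macrophages and 259 to 510 CPM in the other controls. Mouse line, sex and experiment cannot be told apart in these levels. Of the 10 receptors, Tlr2, Tlr7 and Tlr13 were among the 4 highest per kb in all 4 macrophage groups and Tlr5 was the lowest. Tlr13 led the 10 in Smad4FF cKO macrophages at 11.7 ± 1.97 CPM per kb, with Tlr2 at 11.1 ± 0.419. Tlr12, outside the 10, was at 13.2 ± 3.18 CPM per kb in Smad4FF cKO and 13.6 ± 0.992 in Smad4FF macrophages.

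In ECs the comparison of HSC-KO with control asks how the receptors stand in the neighbouring cell type. Tlr4 fell, Tlr5 went from 0 to a few counts, and Tlr2, Tlr3 and Tlr6 did not pass the test. Tested were 5 receptors and called were 2, Tlr4 and Tlr5, beside 13.7% of all 16053 genes. Without Tlr5, whose call the filter on low counts bears on, 1 of 4 was called.

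Tlr4 had 30.4, 28 and 26.9 CPM in control and 14.0, 16.3 and 8.74 CPM in HSC-KO ECs. All HSC-KO libraries lay below all controls, with means of 28.4 ± 1.81 and 13.0 ± 3.89 CPM (SD, n = 3; log2 fold change -1.13 ± 0.23, SE; edgeR adjusted p = 0.013). Without HSC-KO replicate 3 the change was -0.91 (adjusted p = 0.019), past the p threshold but not the fold threshold. Xist reads were present in 1 of 3 control and 2 of 3 HSC-KO EC libraries. Tlr4 stayed called with the Xist level as a covariate. The TLR4 subunit Ly96 had 62.9, 50.3 and 56.6 against 31.6, 17.0 and 18.6 CPM and fell too (-1.34 ± 0.25, adjusted p = 0.0087). Cd14 was at 1.87 and 2.49 CPM and was not called (adjusted p = 0.46).

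Tlr2 had 33.6, 30.0 and 26.5 against 24.1, 22.4 and 21.2 CPM. Its groups did not overlap, but the change did not pass (-0.41 ± 0.15, edgeR adjusted p = 0.092). Tlr3 had 20.4, 20.6 and 19.98 against 18.0, 17.7 and 13.0 CPM, also without overlap (-0.33 ± 0.16, adjusted p = 0.21). With Tlr4 these make 3 receptors lower without overlap, beside 20.2% of all genes. Tlr6 had 1.48, 1.54 and 1.97 against 0.668, 2.43 and 3.24 CPM, with a wide spread among HSC-KO libraries (0.35 ± 0.54, adjusted p = 0.72).

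Tlr5 had 0, 0 and 0 counts in control and 15, 16 and 9 counts in HSC-KO ECs, at least 3.38-fold higher against a floor of 3 counts per library (edgeR adjusted p = 0.023). It passed the filter on low counts through the HSC-KO libraries alone. Its call was lost when any one of the 6 libraries was left out. Tlr1, Tlr7, Tlr8, Tlr9 and Tlr13 were not tested, with at most 8 counts in any EC library of either genotype.

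Genes of the macrophage lists were lower in HSC-KO ECs as well. The sums of the pan-macrophage list, 212 to 319 CPM in control and 61.6 to 105 CPM in HSC-KO ECs, were mostly Mertk (255 to 80.9 CPM), and those of the Kupffer cell list, 301 to 328 and 1.73 to 10.1 CPM, were mostly Clec1b (289 to 4.52 CPM). Control ECs carried Mertk at 64.4% and Clec1b at 37.6% of the macrophage level, so these sums do not measure macrophage RNA. The other genes of both lists, at 0.0476% to 0.102% of the macrophage level in control ECs, were at 0.245 to 10.5 CPM in control ECs, and 4 or 5 of the 6 Kupffer cell genes had 0 counts in each HSC-KO library. Monocyte genes summed to 11.1 to 13.6 CPM in control and 84.6 to 116 CPM in HSC-KO ECs. Of these 5 genes 2 were tested, Ly6c2 and Plac8, and both were called higher. In each HSC-KO EC library 2 of the 5 had 0 counts. Tlr1, Tlr7 and Tlr13, which macrophages carried in plenty, had at most 8 counts in every EC library. The part of these genes in the Tlr4 difference was not tested.

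Among the pathway genes 52 were tested in ECs, 4 were higher and 5 lower, beside 13.7% of all genes called in either direction. The nitric oxide synthase Nos2 rose from 0.367 to 23.6 CPM (6.01 ± 0.20, edgeR adjusted p = 1.1e-05) and Irf7 from 118 to 621 CPM (2.40 ± 0.21, adjusted p = 0.00035), whereas Irf7 fell in macrophages of the same genotype. The inhibitor Sigirr rose from 35.4 to 96.0 CPM (1.44 ± 0.14, adjusted p = 0.00044). The NF-kappaB subunit Rel (9.40 to 4.08 CPM) and the inhibitor Socs1 (3.94 to 1.87 CPM) fell, with adjusted p of 0.012 and 0.047. The call of Socs1 ended with all genes that had a count (edgeR adjusted p = 0.064) and without any one of control replicates 1, 2 and 3 and HSC-KO replicates 2 and 3 (0.065 to 0.13), and that of Rel ended without HSC-KO replicate 3 (0.052). Tlr12 had 42, 74 and 75 counts in control and 10, 0 and 8 in HSC-KO ECs (-3.68 ± 0.99, adjusted p = 0.037).

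Macrophages and ECs of HSC-KO mice were set against each other in a single fit over 12 libraries. It treated the libraries as independent, although 3 mice gave both a macrophage and an EC library. With the mouse as a random block in voom (consensus correlation -0.11), the calls of Tlr2 and Tlr4 below held. The macrophage change exceeded the EC change for Tlr2, by 1.32 ± 0.24 (SE) log2 units (edgeR adjusted p = 0.0035), and for Tlr4, by 1.19 ± 0.35 (adjusted p = 0.041), beside 6.29% of all 18325 genes called in that direction. The Tlr2 call held in every fit with a library left out. The Tlr4 call ended without any one of 9 of the 12 libraries, which were control macrophage replicates 2 and 3, HSC-KO macrophage replicates 1 and 2, control EC replicates 1, 2 and 3 and HSC-KO EC replicates 1 and 3, with values of 0.966 to 1.25. Tlr3 (0.60 ± 0.31, adjusted p = 0.22) and Tlr6 (-0.17 ± 0.58, adjusted p = 0.92) did not pass. The other 6 receptors were not tested, since an EC group had at most 3 counts in each of its libraries.

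In whole liver, Tlr5 was the receptor that fell. It was the 1 called of 10 tested, beside 2.48% of all 17118 genes in either direction and 1.45% in this one. Tlr5 had 7.0, 8.60 and 7.66 CPM in control and 1.51, 2.86 and 3.41 CPM in HSC-KO livers, with means of 7.75 ± 0.805 and 2.59 ± 0.976 CPM (SD, n = 3). Every HSC-KO liver lay below every control (log2 fold change -1.58 ± 0.31, SE; edgeR adjusted p = 0.041). Tlr5 was lower in HSC-KO liver and higher in HSC-KO macrophages, from levels that differed 49.1-fold between the controls. The liver call ended without any one of control replicates 1, 2 and 3 and HSC-KO replicates 1 and 2, with changes of -1.31 to -1.65 and adjusted p of 0.065 to 0.16.

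Tlr8 had 1.51, 3.02 and 3.03 against 0.764, 1.31 and 0.543 CPM, also without overlap (-1.53 ± 0.44, edgeR adjusted p = 0.16), and DESeq2 called it. With Tlr5 this makes 2 of 10 receptors lower without overlap, beside 10.9% of all genes. Tlr7 had 0.978, 4.08 and 3.15 against 0.858, 2.21 and 0.794 CPM, and Tlr4 had 1.35, 2.59 and 2.35 against 1.41, 2.00 and 0.515 CPM. Both overlapped and did not pass (-1.08 ± 0.61, adjusted p = 0.55, and -0.68 ± 0.51, adjusted p = 0.68).

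Tlr13 had 1.84, 3.11 and 2.79 against 1.89, 2.32 and 1.11 CPM, and Tlr9 had 0.254, 0.678 and 0.709 against 1.03, 0.690 and 0.710 CPM. Neither passed, with adjusted p of 0.63 and 0.75. Tlr1, Tlr2, Tlr3 and Tlr6 changed by between -0.33 and -0.02 log2 units and overlapped between genotypes. The median of the 10 was -0.43, and that of all genes -0.01. HSC-KO replicate 3, the one liver library with Y-linked reads, had 12 Xist counts against 31392 to 54369 in the other 5, and was the lowest of the 6 for Tlr1, Tlr2, Tlr3, Tlr4, Tlr6, Tlr7, Tlr8 and Tlr13, and the highest of its group for Tlr5.

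**Figure D4:**
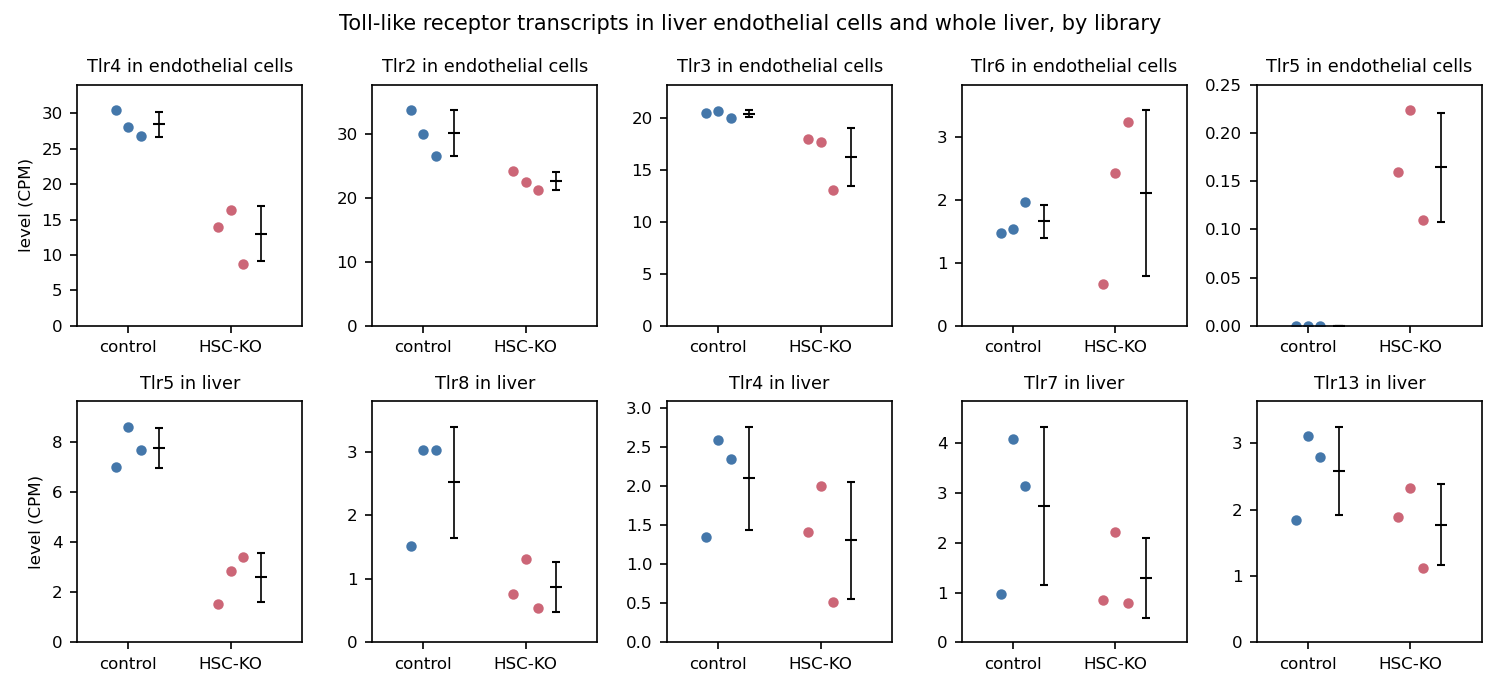
Level in CPM of 5 receptors in ECs (top) and 5 in liver (bottom), with 1 point per library and the mean ± SD of 3 libraries (linear axes that start at 0). Tlr2, Tlr3 and Tlr4 in ECs and Tlr5 and Tlr8 in liver have HSC-KO points below all control points, and Tlr5 in ECs is at 0 in all 3 controls.

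Cell type lists moved in the livers as well. The pan-macrophage list summed to 114 to 197 CPM in control and 40.5 to 53.4 CPM in HSC-KO livers, with 3 of 5 genes lower, and the Kupffer cell list to 235 to 415 and 1.37 to 2.70 CPM. Neutrophil genes summed to 7.18 to 11.4 and 2.52 to 3.84 CPM, and B cell genes to 3.79 to 7.96 and 1.48 to 1.98 CPM. Hepatocyte genes summed to 101699 to 126733 CPM in control and 130934 to 179359 CPM in HSC-KO livers. None of these 6 genes was called by edgeR. For 1 the unadjusted edgeR p was below 0.05, and the share of all genes at that p was not computed. Stellate cell genes summed to 246 to 338 and 433 to 497 CPM, with 0 of 6 called. Endothelial genes summed to 369 to 471 and 292 to 344 CPM, with 2 of 8 lower (Ptprb and Stab2). The part of these cell types in the Tlr5 difference was not tested. In control macrophages Tlr5 stood at 0.189 CPM, below its level of 9.27 CPM in control liver.

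Of the pathway genes 62 were tested in liver, 1 was higher and 2 lower, beside 2.48% of all genes called in either direction. Nos2 rose from 0.0426 to 3.93 CPM (6.40 ± 0.72, edgeR adjusted p = 0.0052), as it did in ECs. Slc15a3 fell from 13.1 to 3.20 CPM (-2.04 ± 0.29, adjusted p = 0.012), as in both macrophage comparisons, and Tlr12 from 7.31 to 2.31 CPM (-1.66 ± 0.31, adjusted p = 0.036). The call of Tlr12 ended with all genes that had a count (edgeR adjusted p = 0.051), with the Xist covariate (0.075) and without any one of control replicates 1 and 2 and HSC-KO replicates 1, 2 and 3 (0.074 to 0.13). That of Slc15a3 ended without control replicate 2 or 3 or HSC-KO replicate 1 (0.061 to 0.066). The macrophage, EC and liver comparisons of HSC-KO mice share genotype. By the sample codes the macrophage and EC comparisons also share 3 mice, so these 2 are not independent of each other.

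**Figure D5:**
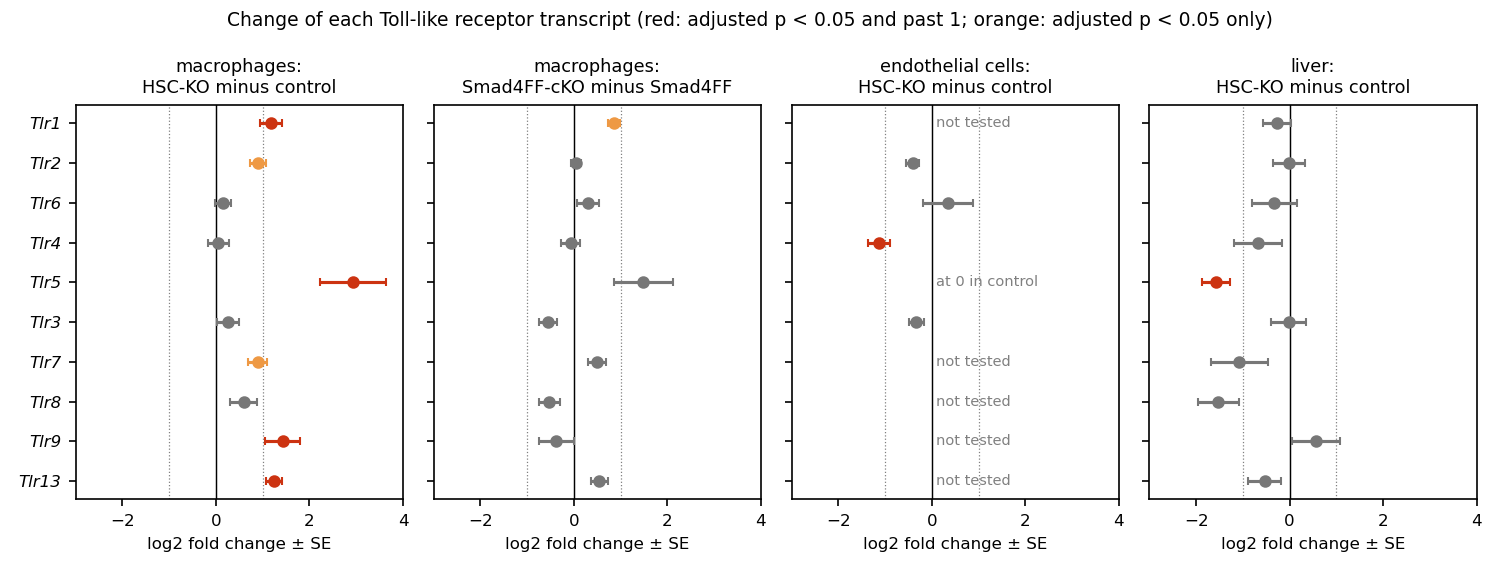
Log2 fold change ± SE of each receptor in 4 comparisons of 3 against 3 libraries, in red where it was called, in orange where the adjusted p alone was below 0.05 and in grey otherwise. Tlr1, Tlr5, Tlr9 and Tlr13 are red on the right in HSC-KO macrophages, no receptor is red in Smad4FF cKO macrophages, and Tlr4 in ECs and Tlr5 in liver are red on the left.

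Receptors were last compared with other genes by the shape of their level over the 8 groups. Only genes with a mean of at least 10 CPM in some group entered. The measure was the root mean square difference of centred log2 CPM group means. Tlr7 and Tlr13 were each other's nearest of these genes, at 0.177 log2 units. Ly9, a receptor of blood cells, came next for both, at 0.221 for Tlr7 and 0.255 for Tlr13. Nearest to Tlr6 were Smpdl3b (0.215) and Unc93b1 (0.238). Nearest to Tlr2 were Mb21d1, the DNA sensor cGAS (0.304), and the kinase Lyn (0.347).

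Tlr1 was nearest to the phosphatase Ptpn22 (0.349) and the transcription factor Runx1 (0.395), and Tlr4 to the kinase Map3k8 (0.372) and to Fam111a (0.388). Tlr3 was nearest to Zbtb6 (0.106) and Otud1 (0.175), neither a gene of this pathway. The measure is a description over 8 group means, and Tlr5, Tlr8 and Tlr9 were too low in all groups for it.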

How the data were processed

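The authors deposited tables of raw read counts per gene, 1 table for each cell type or experiment. Per the labels, RNA was isolated with an RNeasy kit (cells) or TRIzol (liver), and the submitters' processing notes name FastQC, HISAT2, featureCounts and DESeq2 with GRCm38/mm10; the annotation release and strand setting are not given in the sources used here. The labels and the study's methods name different library kits.

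The deposited counts were tested with edgeR 4.0.16 (quasi-likelihood, TMM scaling) in R 4.3.3 after filterByExpr (minimum count 10, minimum total 15), each comparison on its own libraries, with Benjamini-Hochberg adjustment over all genes tested and thresholds of 0.05 for the adjusted p and 1 for the size of the log2 fold change. CPM values were computed from the counts with TMM factors, and exon lengths, coordinates and the Tlr1/Tlr6 sequence came from the GRCm38 GENCODE annotation and genome. Total counts of 60911527 to 110879155 per library set the floor of 3 counts at under 0.05 CPM. Alternatives were DESeq2 1.42.0, its size factors, all genes with at least 1 count, the replicate number as a block, Xist level as a covariate, limma 3.58.1 (voom) with the mouse as a random block, and each library left out. The tests were also run on simulated counts, with changes well above the fold threshold in genes away from low counts. That run does not cover the detection of changes near the threshold or in genes with few reads.

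All 10 receptors were named. Of the pathway lists, called genes with a mean of at least 1 CPM in a group were named, up to the 12 with the largest absolute change, with Tlr11 and Tlr12 by their counts; Cd14, Ly96, Unc93b1, Myd88 and Tirap were added after their values were seen. For likeness, the 2 nearest genes were named for each receptor with a group mean of at least 10 CPM, among genes that reached the same mean. The receptors and the gene lists were chosen with earlier results of these data known. Per the study's methods, the 3 libraries of a group are biological replicates, and their sample codes differ within a group.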

Additional observations from a re-analysis of the deposited data

Results flagged for a closer look

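The change of Tlr2 in macrophages passed the p threshold but not the fold threshold in the test of the difference between the deletions. It was 0.91 log2 units larger in HSC-KO than in Smad4FF cKO macrophages (edgeR adjusted p = 0.040, and 0.011 to 0.14 over 17 alternatives). Tlr2 was higher in 3 of 3 HSC-KO libraries than in any control, and its groups overlapped in the Smad4 experiment.

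Tlr2 and Tlr4 changed differently in macrophages and ECs of HSC-KO mice by the same kind of test. The macrophage change exceeded the EC change by 1.32 log2 units for Tlr2 (edgeR adjusted p = 0.0035) and by 1.19 for Tlr4 (adjusted p = 0.041). The Tlr2 call held in all 18 alternatives. That of Tlr4 was lost in 10 of 18, with adjusted p of 0.013 to 0.09 over the alternatives. For Tlr2 all 3 HSC-KO macrophage libraries lay above and all 3 HSC-KO EC libraries below their controls. For Tlr4 the EC groups were apart and the macrophage groups overlapped.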

How the results depend on the processing

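Called receptors in HSC-KO macrophages went from 4 to 2 (Tlr1 and Tlr13) with the replicate block and ranged from 2 to 5 with a library left out, where Tlr5 and Tlr9 were the calls lost. The count was 3 with all genes that had a count (Tlr9 lost) and 3 with the Xist covariate (Tlr1 and Tlr9 lost, Tlr7 gained). In ECs the count of 2 became 1 (Tlr4) with all genes that had a count and with the replicate block, and 0 to 1 with a library left out. In liver the 1 call became 2 with DESeq2 (Tlr5 and Tlr8), 0 with all genes that had a count and with the replicate block, and 0 to 1 with a library left out. In the difference between deletions the count of 0 became 1 with DESeq2 (Tlr9), 1 with the Xist covariate (Tlr8) and 0 to 1 with a library left out, where Tlr2 was called without control replicate 1 (1.00) or HSC-KO replicate 3 (1.01). In the difference between macrophages and ECs the count of 2 became 1 (Tlr2) with all genes that had a count and 1 to 2 with a library left out. The Smad4 comparison had 0 calls in every alternative run. The fit with all genes that had a count adjusted over more genes, and a fit with a library left out had fewer residual degrees of freedom. Why calls were lost or gained was not tested.

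The sign turned for small changes that had not been called. With the Xist covariate, liver Tlr2 was at 0.23, Tlr6 at 0.024 and Tlr3 at 0.25. In the difference between macrophages and ECs, Tlr6 was at 0.04 with the replicate block and 0.16 with voom. With a library left out, the values ranged from -0.006 to 0.27 (Tlr6) and -0.13 to 0.30 (Tlr4) in HSC-KO macrophages, from -0.18 to 0.10 (Tlr4) in Smad4FF cKO macrophages, from -0.11 to 0.77 (Tlr6) in ECs, and from -0.23 to 0.24 (Tlr2), -0.55 to 0.03 (Tlr6) and -0.53 to 0.22 (Tlr3) in liver. They ranged from -0.34 to 0.038 (Tlr6) and -0.085 to 0.41 (Tlr4) in the difference between deletions, and from -0.60 to 0.28 (Tlr6) in that between cell types.

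Of the pathway genes named, Cd14 in the Smad4 comparison (adjusted p = 0.051) and Socs1 in ECs (0.075) lost their calls with the replicate block. Replicate numbers gave no pairing: correlations of deviations between libraries with the same number ran from -0.107 to 0.162, although in ECs each library correlated best with its own number. Receptors under about 10 counts per library, as Tlr5 in control macrophages and ECs, are limited by depth.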
